A study of Mus musculus with 6 samples.

Results

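The insulin and IGF system was followed here through 10 genes, chosen by symbol for their roles: the ligands Igf1 and Igf2, the binding proteins Igfbp2 and Igfbp5, the receptors Insr, Igf1r and Igf2r, the substrates Irs1 and Irs2, and the phosphoinositide 3-kinase (PI3K) subunit Pik3r1. All 10 were listed once among the 23282 gene entries of each library. The groups were wild-type C57BL/6J male mice of 8 to 10 weeks, fed either a normal chow diet (NCD, 3 libraries) or a high-fat diet with 60 kcal% fat (HFD, 3 libraries), both for 10 days. RNA came from the forebrain without olfactory bulbs and cerebellum and was read with QuantSeq, a method that primes on the poly(A) tail and counts reads near the 3′ end of transcripts. Labels do not say whether each library came from its own mouse, so the p-values measure the spread between these libraries.

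Insulin and the insulin-like growth factors bind related receptor tyrosine kinases. The active receptor phosphorylates insulin receptor substrates, which dock PI3K and so switch on AKT, while AKT holds the FoxO transcription factors out of the nucleus. In the brain this system is known for its part in feeding control, neuronal growth and survival. Igf2 and Igfbp2 are well known from the meninges and choroid plexus as well as from neural tissue.

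After 10 days none of the 10 genes passed the test for a difference between the diets. With edgeR's quasi-likelihood test, 0 of the 10 had an unadjusted p under 0.05, against 3.68% of the 13771 genes tested. The adjusted p was under 0.05 for 0 members and for 0 genes overall (0%). At the unadjusted threshold 507 genes passed, and after adjustment DESeq2 called 2 genes and limma 0, no member among them. Log2 fold changes of the members ran from -0.25 for Igf2 to 0.21 for Irs1, with 4 above and 6 below 0, where 50.6% of all genes tested were below 0. Their median was -0.0114, beside -0.00245 over all genes tested. A p under 0.05 together with a change of at least 1.5-fold was found for 0 members and 1.28% of genes. Adjusted p was 0.979 or higher for each member. In the edgeR fit the 95% interval of the difference lay within a 1.5-fold change in both directions for 9 of the 10. Irs1 was the exception, with an upper bound of 1.52-fold. Intervals were drawn for this fit only. For Igf1r the standard error was larger with DESeq2 (0.32) and limma (0.25) than with edgeR (0.19). For Igf2 it was also larger with DESeq2 (0.153) and limma (0.157) than with edgeR (0.136), at a limma estimate of -0.26. The count of 9 thus belongs to the edgeR fit, and a change beyond 1.5-fold is not excluded for these or other members.

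The total count lay between 6842785 and 9689372 per library. Levels are given as CPM, counts relative to library size after TMM scaling, and a count of 3, taken as the detection floor, equals 0.316 to 0.432 CPM. In pituitary markers HFD replicate 3 stood apart. Its summed level of 8 pituitary markers was 1277 CPM, led by growth hormone, against 5.33 to 13.8 CPM in the other libraries. Summed liver markers were highest in NCD replicate 2 at 55.0 CPM and lay between 5.64 and 33.1 CPM elsewhere, and 5 of the 5 liver markers tested were lower on the HFD at an unadjusted p under 0.05. Summed olfactory bulb markers were also highest in NCD replicate 2 (65.4 CPM) and lowest in HFD replicate 3 (7.01 CPM). Cerebellar markers, although the cerebellum was removed, summed to 60.6 to 91.4 CPM, led by Zic1, while Gabra6 had a count of 1 in HFD replicate 2 and 0 in the other libraries. Neuronal and forebrain markers were present in all libraries, with sums of 5419 to 5712 CPM and 1202 to 1330 CPM. The part of these differences in the results below was not tested, and values without HFD replicate 3 are given for the members and named pathway genes.

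**Figure D1:**
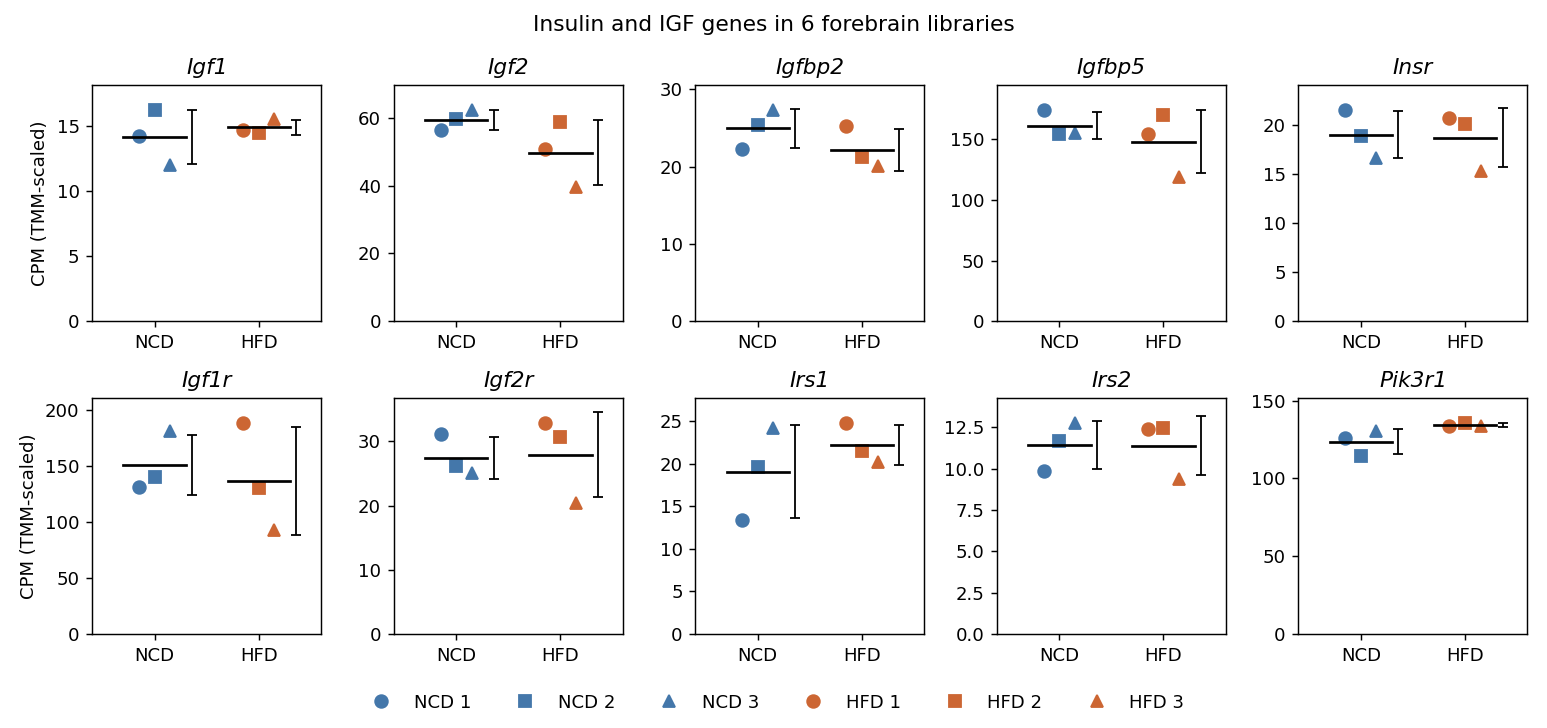
Level of each member in CPM (y axis from 0) in the 3 NCD and 3 HFD libraries. Points are libraries with 1 symbol per replicate number, horizontal lines are group means, and bars to their right are ± 1 SD. Only Pik3r1 has all HFD points (133.6 to 135.5 CPM) above all NCD points.

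Of the ligands, Igf1 encodes the growth factor that growth hormone induces in liver and that neurons and glia also make. Its level was 14.2, 16.2 and 12.01 CPM in NCD replicates 1, 2 and 3 and 14.7, 14.4 and 15.5 CPM in HFD replicates 1, 2 and 3. The HFD libraries lay inside the range of the NCD libraries. NCD libraries averaged 14.1 ± 2.09 CPM (SD, n = 3) and HFD libraries 14.9 ± 0.582 CPM (SD, n = 3). On the log2 scale Igf1 was 0.07 higher (standard error 0.17, unadjusted p = 0.668), and 0.043 higher without HFD replicate 3. Igf1 was neither highest nor lowest in HFD replicate 3, the library rich in pituitary markers. A link between Igf1 and the growth hormone mRNA of that library was not tested. The gene lies at chr10:87858265-87937042 of GRCm38 on the plus strand. Its nearest downstream coding neighbour is Pmch, the melanin-concentrating hormone gene of the lateral hypothalamus, with 274, 408 and 415 counts in NCD libraries and 264, 416 and 60 in HFD libraries. Pmch was thus lowest in HFD replicate 3, where Igf1 had its second highest level.

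Igf2 encodes a fetal growth factor and is imprinted. Its level was 56.3, 59.8 and 62.3 CPM in the NCD libraries and 50.8, 58.8 and 39.6 CPM in the HFD libraries. HFD replicates 1 and 3 were below all NCD libraries, while HFD replicate 2 was among them. Igf2 was lower by estimate (log2 fold change -0.25, standard error 0.14, 95% interval -0.54 to 0.03), with an unadjusted p of 0.0804 that was the lowest of the 10 members and an adjusted p of 0.979. Without HFD replicate 3 it was -0.11 (unadjusted p = 0.32), and without HFD replicate 2 it was -0.40 (unadjusted p = 0.019, adjusted p = 0.963). The summed level of 9 markers of meninges and perivascular fibroblasts was also lowest in HFD replicate 3, at 103 CPM against 121.6 to 137 CPM in the other libraries, and 0 of the 9 had an unadjusted p under 0.05. The markers were not uniform: Col1a2, which led the sum, was lowest in HFD replicate 3 (26.1 CPM), while Dcn was highest there (49.6 CPM). Summed markers of neurons, endothelium, cerebellum, olfactory bulb and liver were lowest in HFD replicate 3 too, and those of the remaining lists were not. In whole forebrain tissue, fewer cells of a type and less RNA per cell cannot be told apart. The summed choroid plexus markers, led by Ttr, ran from 1046 to 1312 CPM and were not lowest in that library. Igf2 spans chr7:142650766-142666816 on the minus strand. An exon of the predicted gene Gm49394 overlaps it on the same strand and one of Igf2os on the other, and Igf2os had counts of 1 to 5. Without a stated use of strand such reads cannot be told apart. Ins2, the insulin gene 11839 bases away, had 0, 1 and 0 counts in NCD libraries and 4, 0 and 2 in HFD libraries.

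The binding proteins Igfbp2 and Igfbp5 hold IGFs outside cells and set how much reaches the receptor. Their genes are neighbours on chromosome 1, Igfbp2 at 72824503-72852474 on the plus strand and Igfbp5 at 72857932-72874884 on the minus strand, and their 3′ ends face each other across 5457 bases. Igfbp2 had 22.2, 25.3 and 27.3 CPM in the NCD libraries and 25.2, 21.2 and 20.1 CPM in the HFD libraries. HFD replicates 2 and 3 were below all NCD libraries and HFD replicate 1 was within them. The estimate for Igfbp2 (log2 HFD over NCD) was -0.18 (standard error 0.15, unadjusted p = 0.249), and -0.11 without HFD replicate 3. Igfbp5 had 174, 154 and 155 CPM on the NCD and 154, 170 and 119 CPM on the HFD. Among its HFD libraries, replicate 3 was the lowest of all 6 and replicate 2 the second highest. For Igfbp5 the estimate was -0.12 (standard error 0.13, unadjusted p = 0.348), and it was 0.01 without HFD replicate 3. The neighbours thus shared their lowest library but not their highest, which was NCD replicate 3 for Igfbp2 and NCD replicate 1 for Igfbp5.

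Of the receptors, Insr encodes the insulin receptor (chr8:3122061-3279617, minus strand). It had 21.5, 18.9 and 16.6 CPM on the NCD and 20.7, 20.1 and 15.3 CPM on the HFD. The groups overlapped over nearly their whole range, and Insr had an estimate of -0.019 (log2, standard error 0.17, 95% interval -0.37 to 0.33, unadjusted p = 0.911). Without HFD replicate 3 the value was 0.11, and without NCD replicate 1 it was 0.076.

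Igf1r encodes the receptor for IGF1 and also binds IGF2 (chr7:67952827-68233668, plus strand). It had 131, 140 and 181 CPM in the NCD libraries and 188, 130 and 92.5 CPM in the HFD libraries. HFD replicates 1 and 3 were the highest and the lowest of all 6 libraries, 2.03-fold apart. Over the 6 libraries the SD of its log2 CPM was 0.37, at or above that of 99.1% of the 2349 genes with a mean count within 2-fold of its own. The diets differed by -0.14 (log2, standard error 0.19, unadjusted p = 0.465), less than this spread. Without HFD replicate 1 the estimate was -0.44 (unadjusted p = 0.0159, adjusted p = 0.839) and without HFD replicate 3 it was 0.07 (unadjusted p = 0.629). It was 0.012 without NCD replicate 3, so the direction turned with either of 2 libraries.

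Igf2r encodes the mannose 6-phosphate receptor, which clears IGF2 by carrying it to lysosomes (chr17:12682406-12769664, minus strand). It had 31.1, 26.1 and 25.1 CPM on the NCD and 32.8, 30.6 and 20.3 CPM on the HFD. HFD replicates 1 and 3 were again the highest and lowest libraries. Between the diets the log2 estimate for Igf2r was 0.03 (standard error 0.17, unadjusted p = 0.863) and 0.21 without HFD replicate 3 (unadjusted p = 0.145), while it was below 0 without HFD replicate 1 (-0.096), HFD replicate 2 (-0.045), NCD replicate 2 (-0.0042) or NCD replicate 3 (-0.031). Airn, a noncoding RNA that can silence the paternal Igf2r allele, overlaps the gene on the other strand without sharing an exon, and had counts of 4 to 10.

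The substrates Irs1 and Irs2 carry the receptor signal to PI3K. Their promoters are shown because they were the only members' windows to hold CAAAACA, the core of insulin response elements, among the letters searched. Each sequence is the 250 bases before the RefSeq start site on GRCm38.p6, read 5′ to 3′ on the minus strand from chr1:82291440-82291689 for Irs1 and chr8:11008930-11009179 for Irs2. Capitals mark TGTTTTG, the reverse complement of CAAAACA, and the E box CACGTG.
Irs1: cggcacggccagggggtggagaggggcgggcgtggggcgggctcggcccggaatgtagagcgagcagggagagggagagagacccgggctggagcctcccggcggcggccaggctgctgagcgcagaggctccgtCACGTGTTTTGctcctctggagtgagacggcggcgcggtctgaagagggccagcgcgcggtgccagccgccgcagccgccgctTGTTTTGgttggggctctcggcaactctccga
Irs2: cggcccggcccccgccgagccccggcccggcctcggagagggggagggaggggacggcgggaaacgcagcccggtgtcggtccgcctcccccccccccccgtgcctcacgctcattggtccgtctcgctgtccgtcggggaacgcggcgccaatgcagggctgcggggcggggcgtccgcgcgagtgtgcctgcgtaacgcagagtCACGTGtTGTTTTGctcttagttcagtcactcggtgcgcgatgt

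In both windows an E box adjoins the motif TGTTTTG, with the pair lying at bases 136 to 141 and 140 to 146 of the Irs1 window, where the matches overlap, and at bases 207 to 212 and 214 to 220 of the Irs2 window. Irs1 holds a further TGTTTTG at bases 219 to 225. On either strand CAAAACA occurs in 5.56% of the 32851 promoter windows of this length, and CACGTG in 6.02%. Among the members, CACGTG was also in the window of Igf2r and in a window of Igfbp2. The FoxO consensus GTAAACA, found in 3.17% of windows, was in 0 of the 14 windows that 9 members had. Of 6 motifs searched, the others were the GC box GGGCGG, the TATA box as TATAAA, and the core GCGTG of hypoxia response elements. A match is only a run of letters.

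Irs1 (chr1:82233101-82291416, minus strand) had 13.3, 19.6 and 24.2 CPM on the NCD and 24.8, 21.5 and 20.2 CPM on the HFD. NCD replicate 1 was the lowest library, and the other libraries lay between 19.6 and 24.8 CPM. Irs1 had a log2 estimate of 0.21 (standard error 0.19, unadjusted p = 0.28). It was 0.014 without NCD replicate 1, 0.42 without NCD replicate 3 (unadjusted p = 0.0445, adjusted p = 0.999) and 0.27 without HFD replicate 3, and so moved most with the NCD libraries. Irs2 (chr8:10984681-11008458, minus strand) had 9.87, 11.6 and 12.7 CPM on the NCD and 12.4, 12.5 and 9.35 CPM on the HFD. NCD libraries averaged 11.4 ± 1.45 CPM (SD, n = 3), HFD libraries 11.4 ± 1.77 CPM (SD, n = 3). Irs2 had a log2 estimate of -0.0040 (standard error 0.19, 95% interval -0.41 to 0.41, unadjusted p = 0.984), and 0.12 without HFD replicate 3. Exons of Gm9747 and 9530052E02Rik overlap Irs1 and Irs2, respectively, on the other strand.

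Pik3r1 encodes p85α and its shorter forms, the regulatory subunits that dock on phosphorylated substrates (chr13:101680563-101768217, minus strand). It had 126, 115 and 130 CPM in the NCD libraries and 133.6, 135.5 and 133.8 CPM in the HFD libraries. All HFD libraries lay above all NCD libraries, by 3.37 CPM at the closest, and Pik3r1 was the 1 member of 10 without overlap, where 8.81% of all genes tested had none. By exact permutation, 3 against 3 libraries cannot reach a p below 0.1. Pik3r1 had a log2 estimate of 0.12 (standard error 0.10, 95% interval -0.10 to 0.34, unadjusted p = 0.268), or 1.09-fold. It stayed between 0.07 and 0.16 with each library left out and was 0.12 without HFD replicate 3.

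**Figure D2:**
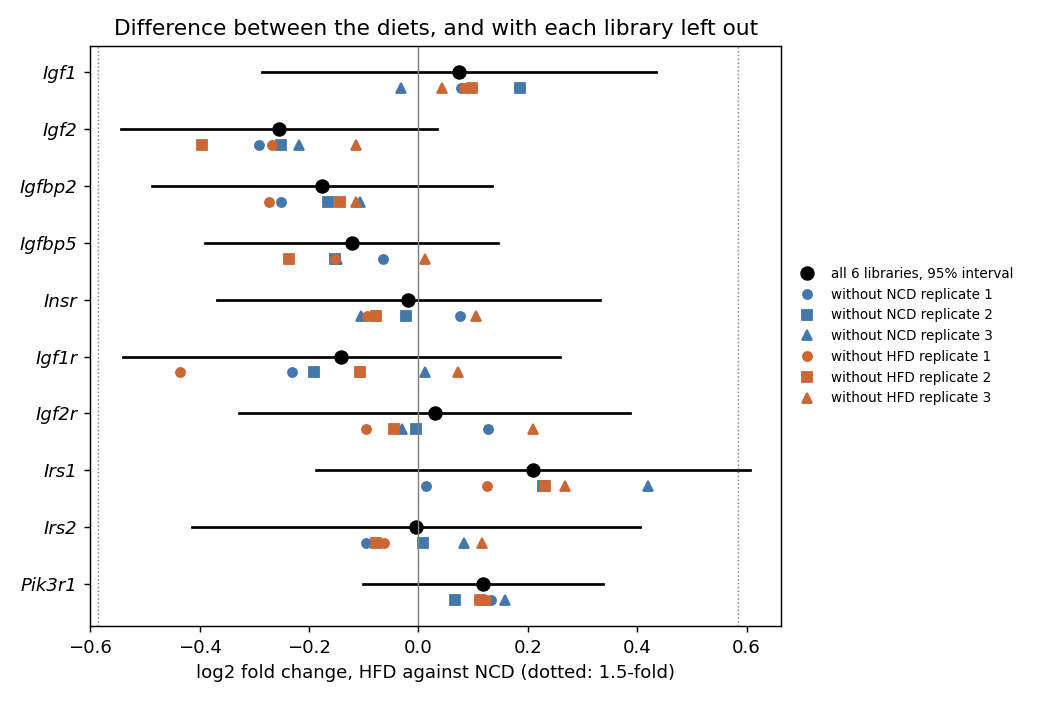
Log2 fold change of each member, HFD against NCD (x axis). Black points with lines are the estimate from all 6 libraries with its 95% interval, coloured symbols the estimate with 1 library left out, and dotted lines a 1.5-fold change. Without HFD replicate 3, 8 members lie above 0, against 4 with all libraries.

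HFD replicate 3 was the lowest library for most members. Insr, Igf1r, Irs2, Igf2, Igf2r, Igfbp2 and Igfbp5, or 7 of the 10, were lowest in that library, while 27.1% of all genes tested were lowest and 26.2% highest there. No member was highest in it. Igf1, Irs1 and Pik3r1 were lowest in NCD replicates 3, 1 and 2, respectively. Next after HFD replicate 3 came NCD replicate 3, which was lowest for 21.7% and highest for 21.4% of all genes tested. Without HFD replicate 3, 8 members were above 0 and 2, Igf2 and Igfbp2, below, with a median log2 fold change of 0.0891 against -0.00443 over all genes. In that fit 0 of the 10 had an unadjusted p under 0.05.

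**Figure D3:**
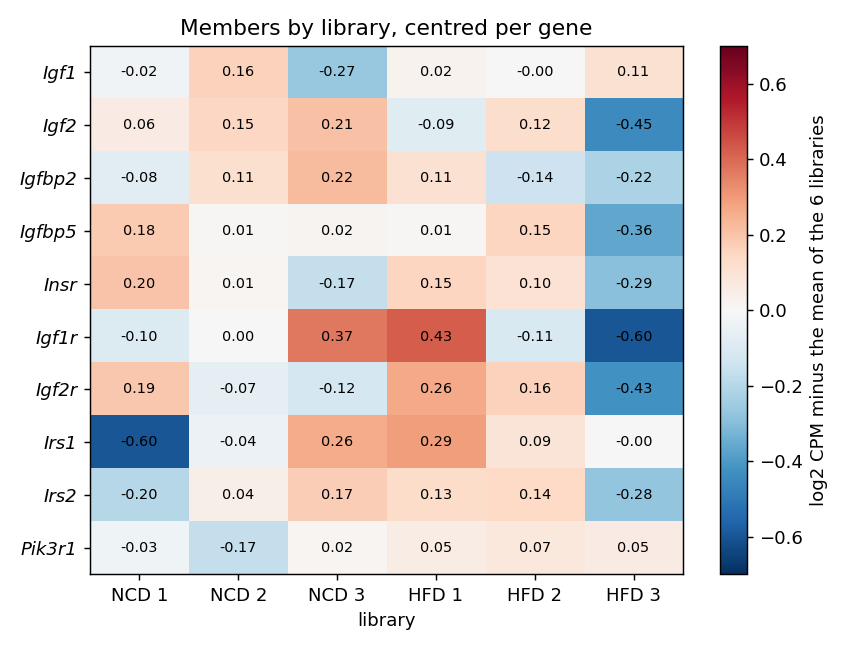
Log2 CPM of each member (rows) in each library (columns), minus the gene's mean over the 6 libraries, with the value in each cell. HFD replicate 3 is the lowest column for 7 genes, from -0.22 for Igfbp2 to -0.60 for Igf1r, and NCD replicate 1 is lowest for Irs1 at -0.60.

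The members with the largest SD over the libraries were Igf1r, Irs1 and Igf2r. Likeness to other genes was measured as the root mean square difference between centred log2 CPM profiles over the 6 libraries, across 10717 genes with a mean count of at least 50. Igf1r was nearest to Smpd4, Zfp276 and Calcoco1, with differences of 0.0688, 0.071 and 0.0753, where the median over all genes was 0.37. For Irs1 the nearest were Ndst2, Nat6 and Hlcs (0.0561, 0.0796 and 0.0866, median 0.333). For Igf2r they were Myadm, Gm16853 and Actn1 (0.0197, 0.049 and 0.0528, median 0.278). These values describe 6 libraries only and carry no test. No gene was shared between the nearest of these members.

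Of 92 other genes of the pathway, in 6 lists, 80 passed the count filter. Of these 80, 2 were higher and 1 was lower on the HFD at an unadjusted p under 0.05, and 0 had an adjusted p under 0.05. Over all genes tested, 1.71% were higher and 1.98% lower at the same unadjusted threshold. The 16 genes tested of the PI3K, AKT and FoxO list, to which Pik3r3 and Foxo1 belong, had a median log2 fold change of -0.0313.

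Pik3r3 encodes p55γ, a further regulatory subunit of PI3K. It had 36.4, 36.9 and 30.3 CPM on the NCD and 46.9, 42.5 and 45.8 CPM on the HFD, without overlap. Pik3r3 had a log2 estimate of 0.38 (standard error 0.13, unadjusted p = 0.00773, adjusted p = 0.979), or 1.30-fold. Its unadjusted p was under 0.05 in 16 of 16 alternatives, but these refit the same libraries or some of them. The lowest adjusted p among them was 0.726. Without HFD replicate 3 the estimate was 0.37. An exon of Gm49337 overlaps it on the same strand. Foxo1, the transcription factor that AKT restrains, had 46.4, 42.3 and 46.5 CPM on the NCD and 39.7, 39.0 and 30.5 CPM on the HFD, again without overlap. Foxo1 had a log2 estimate of -0.31 (standard error 0.13, unadjusted p = 0.0334, adjusted p = 0.979) and -0.19 (unadjusted p = 0.113) without HFD replicate 3. Its unadjusted p was under 0.05 in 11 of 16 alternatives. It was also above 0.05 without NCD replicate 1 (0.0923), without NCD replicate 3 (0.0752) and with limma (0.0577). An exon of Gm20402 overlaps Foxo1 on the other strand. At the ends of this list stood Pik3r3 and Slc2a4, the insulin-responsive glucose transporter, with 3 to 12 counts and an estimate of -0.49 (log2, standard error 0.57), or -0.55 without HFD replicate 3.

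**Figure D4:**
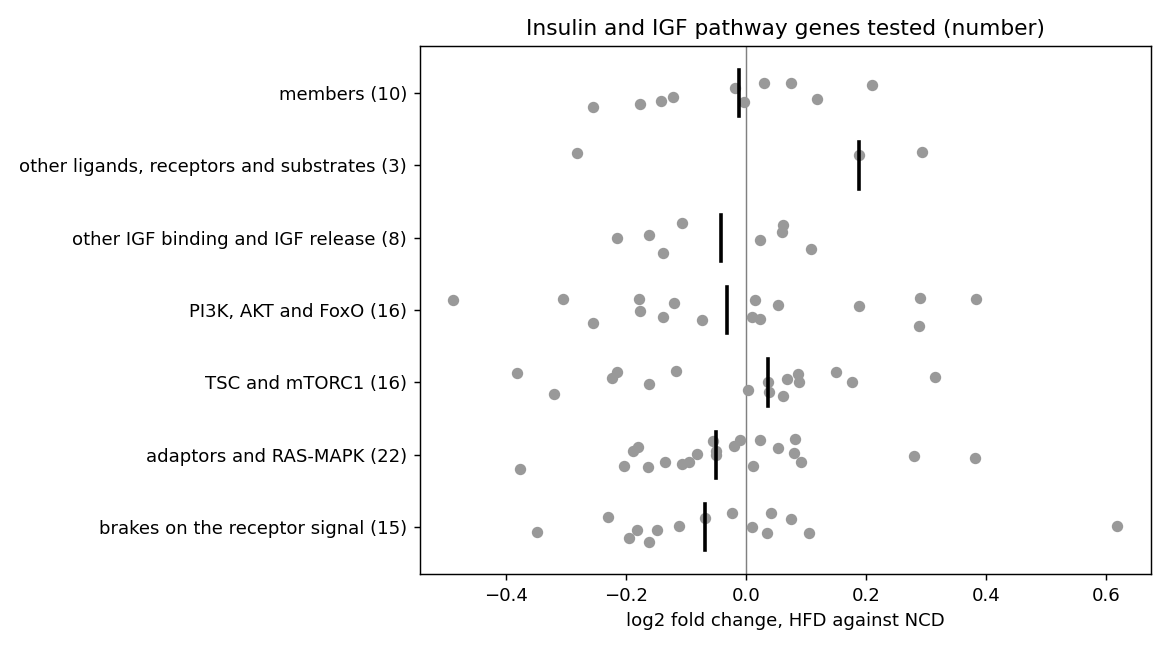
Log2 fold change, HFD against NCD (x axis), of each gene tested in the 6 pathway lists and of the members (rows, number tested in brackets). Points are genes and vertical bars medians, which lie between -0.0679 for the brakes and 0.189 for the other ligands, receptors and substrates.

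In the other lists 0 genes had an unadjusted p under 0.05. Of the other ligands, receptors and substrates 3 of 8 were tested, from Lrp1 (-0.28) to Irs4 (0.29), with a median log2 fold change of 0.189. The 8 tested genes of IGF binding and release had a median of -0.0419 and ran from Igfbp6 (-0.22) to Igfbp4 (0.11). Igfbp6, a binding protein that prefers IGF2, was lower without overlap, at 11.85, 11.97 and 12.33 CPM on the NCD and 9.93, 9.83 and 11.4 CPM on the HFD (unadjusted p = 0.249). The 16 genes of TSC and mTORC1 had a median of 0.0376, from Eif4ebp2 (-0.38) to Eif4ebp1 (0.31), a pair of translation repressors under mTORC1. The 22 adaptors and RAS-MAPK genes had a median of -0.0496, from Sh2b2 (-0.38) to Shc3 (0.38). The 15 brakes on the receptor signal had a median of -0.0679, from Enpp1 (-0.35) to Socs3 (0.62). Socs3, which blocks receptor signals and is induced by cytokines and leptin, had 2.35, 2.59 and 3.16 CPM on the NCD and 4.61, 5.57 and 2.20 CPM on the HFD. HFD replicates 1 and 2 were above and replicate 3 below all NCD libraries, with a log2 estimate of 0.62 (standard error 0.37, unadjusted p = 0.114), or 0.91 (unadjusted p = 0.0178) without HFD replicate 3. The adjusted p of Socs3 was 0.859 or higher in every alternative, on 16 to 51 counts per library. Without HFD replicate 3 the log2 estimates nearer to 0 were those of Lrp1 (-0.063), Enpp1 (-0.047), Eif4ebp2 (-0.14) and Igfbp4 (0.082), and Eif4ebp1 turned to -0.039. Those farther from 0 were Irs4 (0.52), Igfbp6 (-0.29), Sh2b2 (-0.60) and Shc3 (0.46). Over all 80 genes 6 did not overlap between the diets, 3 in each direction, beside 4.31% of all genes in the higher and 4.49% in the lower direction.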

How the data were processed

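Forebrain RNA of 3 NCD and 3 HFD libraries was sequenced with QuantSeq on a NextSeq 550. The authors trimmed adaptors, mapped reads to mm10 with Bowtie2 and counted unique and multiple alignments per gene with bedtools. They deposited whole-number read counts without normalization. The annotation, tool versions and use of strand are not given in the sources used here. Paralogs could share multiply aligned reads, and isoforms with a common 3′ end are counted together.

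Gene-wise tests used edgeR 4.0.16 under R 4.3.3 (filterByExpr, minimum count 10 and total 15, TMM, glmQLFit and glmQLFTest, Benjamini-Hochberg over all genes tested), after a check on simulated data. The standard error is the log2 fold change over the square root of F. No gene name was blank. Intervals of 95% use the t distribution of the fit, and the floor covers counting error only. Alternatives were DESeq2 1.42.0, limma 3.58.1 after quantile normalization of log2(CPM + 1), other scalings and filters, robust estimation, a replicate block and libraries left out. Named genes are the members, their annotated neighbours and overlaps, pathway genes with an unadjusted p under 0.05 or at the ends of a list, and the 3 genes nearest in profile to the 3 most variable members. The members and lists were chosen with earlier results of these data known, and marker lists came from general knowledge. Positions are from GENCODE vM21 (GRCm38), promoters from RefSeq (GRCm38.p6). Plots were made with Python 3.11.15 and matplotlib 3.10.9. The values of 1 pathway gene are not reported here.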

Additional observations from a re-analysis of the deposited data

How the results depend on the processing

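The count of genes with an adjusted p under 0.05 was 2 with DESeq2, 23 without a count filter and between 0 and 3 with 1 library left out. For members with an unadjusted p under 0.05 it was 0 to 1 with 1 library left out, namely Irs1 without NCD replicate 3, Igf1r without HFD replicate 1 and Igf2 without HFD replicate 2, and 0 under every other alternative run. For the other pathway genes it was 1 after quantile normalization with limma (Pik3r3), 6 without a count filter, 2 to 6 with 1 library left out and 5 without both HFD replicate 3 and NCD replicate 2, an alternative chosen after seeing the data. With 1 library left out, log2 fold changes crossed 0 for Insr (-0.11 to 0.11), Igf1r (-0.44 to 0.072), Irs2 (-0.10 to 0.12), Igf1 (-0.032 to 0.19), Igf2r (-0.10 to 0.21), Igfbp5 (-0.24 to 0.012), Irs4 (-0.16 to 0.52), Eif4ebp1 (-0.039 to 0.51), Eif4ebp2 (-0.64 to 0.0063) and Enpp1 (-0.63 to 0.10). Without both libraries they were 0.10 for Insr, 0.022 for Igf1r, 0.13 for Irs2 and 0.63 for Irs4. The causes were not tested. No pairing by replicate number was seen: deviations from the group means correlated at -0.03, 0.05 and -0.06 for numbers 1, 2 and 3. Between unlike numbers the correlations ran from -0.063 to 0.079. With 3 libraries per group these values cannot exclude a pairing. With a replicate block the counts were 0 genes, 0 members and 3 pathway genes, and it changed no call on a named gene. Members had 68 to 1718 counts per library, and the intervals given reflect the spread between libraries as well as counting error.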

Other observations

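Several genes of the system had few or no counts. Ins1, which encodes insulin I, had 7 counts in HFD replicate 3 and 0 in the other libraries, and in the fit without a count filter its unadjusted p was 0.0333 with an adjusted p of 0.941. Igfbp1, a liver binding protein under insulin control, had 0, 2 and 1 counts in NCD libraries and 0 in each HFD library. Igfals, the subunit of the circulating IGF complex, had 1 count in HFD replicate 2 and 0 elsewhere. Foxo3 had 1 to 5 counts per library and was under the count filter, which Foxo1, Foxo4 and Foxo6 passed. All of them were picked with their values in view. Reads were counted near 3′ ends with an annotation that is not given, and whether Foxo3 mRNA was scarce in this tissue was not tested.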
